A study of Mus musculus with 6 samples.

Results

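The genes described here are 10 that encode the kinases, cyclins and a phosphatase that carry germ cells through the divisions: Ccna1, Cdk1, Ccnb1, Ccnb2, Ccnb3, Cdc25c, Plk1, Aurka, Aurkb and Aurkc. They were taken by symbol from the 53700 mouse gene identifiers in the deposited tables, and all 10 had enough reads to be among the 21902 genes tested. RNA of whole testes was sequenced in 6 libraries from mice at postnatal day 45, 3 labelled with the Msl3 WT genotype and 3 labelled as cKO, a conditional knockout of a floxed Msl3 allele. The strain label of all 6 libraries, WT included, is Msl3em1Forni/C57BL/6J, and the recombinase, the cells in which it acts and the deleted part of Msl3 are not given in the sources used here. The comparison asks whether loss of Msl3, whose protein belongs to the MSL chromatin complex, changes the RNA of spermatogenesis. Levels are in CPM, the usual scale of a count relative to all assigned reads of its library, with library sizes scaled by the trimmed mean of M values (TMM), and a gene is called when its edgeR quasi-likelihood p, adjusted over all genes tested, is under 0.05.

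Cdk1 with a B-type cyclin forms the activity that drives cells from prophase into division. Phosphates placed by Wee1 and Pkmyt1 hold Cdk1 inactive until Cdc25 phosphatases remove them. Polo-like kinase 1 and the Aurora kinases then act on the spindle, the centromeres and cell separation, and the anaphase-promoting complex ends division by marking cyclin B for destruction. In the testis, spermatocytes make several of these proteins in large amounts before the meiotic divisions, and Ccna1 and Aurkc are forms used mostly by germ cells.

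None of the 10 genes differed between the groups at the threshold, and the most any of them moved was a log2 fold change of -0.25 (SE 0.083) for Aurkc and 0.20 (SE 0.073) for Plk1. The Aurkc value rests on a count that can miss reads, since Aurkc shares read-length sequence with 8 pseudogenes. Of these, only Gm12463 was aligned to it, and it is near-identical where they align. For the counts of Aurkc and its pseudogene Gm12463 summed, the log2 fold change was 0.05. With all 8 copies summed, an alternative added after the data were seen, it was 0.18. Reads that map equally well to more than 1 of these genes are in neither sum. edgeR called 0 of the 10 members, against 4 of all genes (0.0183%), and DESeq2 called 0 of the 10, against 193 of the 13761 genes it gave an adjusted p (1.4%). At an unadjusted p under 0.05 there were 2 members, Plk1 higher and Aurkc lower in cKO, against 13.9% of all genes (7.33% higher and 6.54% lower). In 3 members, Aurkc, Plk1 and Ccnb2, the groups did not overlap, against 18.9% of all genes. In bulk testis RNA, fewer cells of a type and less RNA per cell cannot be told apart.

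**Figure D1:**
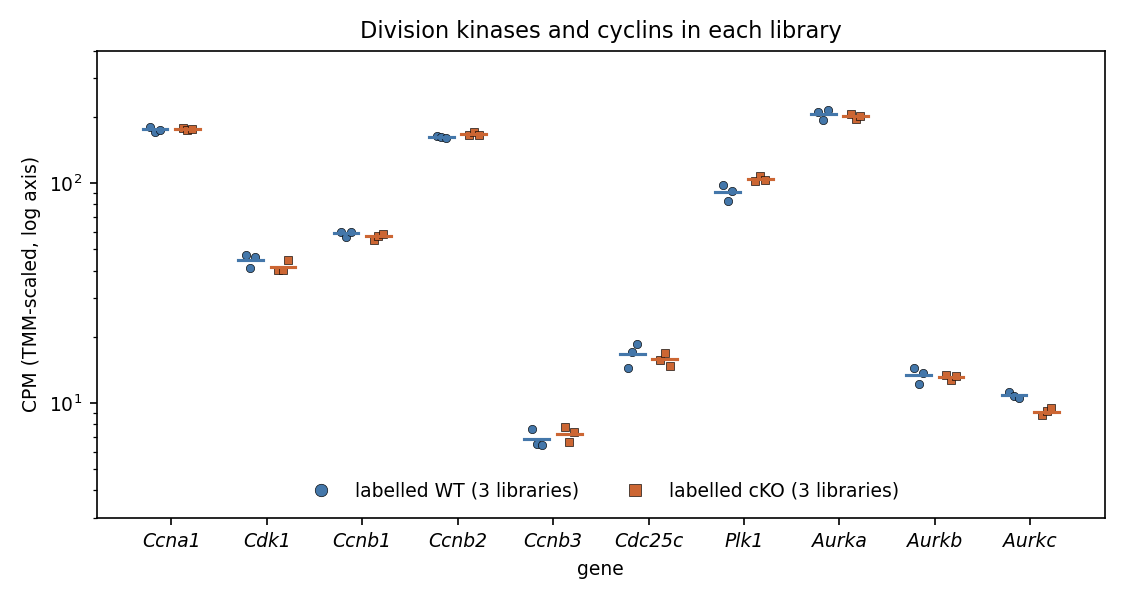
Level of each of the 10 genes in each library in CPM (log axis), with 3 libraries labelled WT (circles) and 3 labelled cKO (squares) and a line at each group mean. The genes span from about 6.42 CPM (Ccnb3) to 216 CPM (Aurka), while the groups lie close together within each gene.

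The libraries held 56991431 to 73766444 assigned reads, and the 10 genes together took 0.0772% to 0.0805% of them. Msl3 (chrX:168654117-168673898) was counted 942, 1226 and 990 times in WT libraries and 1170, 829 and 923 times in cKO libraries. Its log2 fold change was -0.12 (SE 0.088, edgeR adjusted p = 0.551) and 95% limits of 80.3% and 104.8% of WT, so no change of the targeted gene was called, and the groups are named by their labels. Markers of 9 testis cell types, 10 genes each, were all detected in every library. Summed markers of pachytene and diplotene spermatocytes lay at 7157 to 7324 CPM in WT and 6520 to 7133 in cKO. For round spermatids, the sums were 1140 to 1256 and 1081 to 1127 CPM, and neither pair of ranges overlapped. The median log2 fold changes were -0.08 for the spermatocyte list and -0.13 for the round spermatid list. Among single genes, 18.9% of all tested had groups without overlap, and no such share was computed for sums. The ranges overlapped for the other 7 types, which are spermatogonia, elongating spermatids, Sertoli, Leydig and peritubular myoid cells, macrophages and endothelium. Over the 9 lists the median log2 fold change ran from -0.24 (macrophages, at 143 to 171 CPM in WT and 139 to 159 CPM in cKO) to 0.13 (endothelium), and no marker was called. The part of these marker levels in the members' values was not tested.

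Cdk1, the kinase itself (ENSMUSG00000019942, chr10:69335146-69352938, minus strand), stood at 47.2, 41.1 and 46.0 CPM in WT and 40.3, 40.1 and 44.8 CPM in cKO. The second WT library was low and the third cKO library high, so the groups overlapped. The log2 fold change was -0.10, or 93.3% of WT (95% limits 82.9% and 104.9%, edgeR adjusted p = 0.586). Ccnb2 (chr9:70407692-70421547, minus strand), the more abundant of the mitotic B-type cyclins here, had 164, 162 and 160.3 CPM in WT and 165, 171 and 166 CPM in cKO. All cKO libraries were above all WT libraries, yet the log2 fold change was 0.04 (95% limits -0.09 and 0.17, edgeR adjusted p = 0.805). Ccnb1 (chr13:100778650-100786570, minus strand), the cyclin B that is essential for cell division in mice, had 60.1, 56.8 and 60.2 CPM in WT and 55.1, 57.7 and 58.8 CPM in cKO. These groups overlapped, and the log2 fold change was -0.05 (95% limits -0.19 and 0.10, edgeR adjusted p = 0.798). Ccnb1 shares sequence with 5 pseudogenes: 18.9% of its 75-base words, the length of a read, occur in them. These pseudogenes had from 0 to 11 reads in a library, and summing them with Ccnb1, an alternative added after the data were seen, left the log2 fold change at -0.05.

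The sequences before the start sites of Cdk1, Ccnb1 and Ccnb2 are shown as the regulatory context of this kinase and its main cyclins. They are the 250 bases upstream of the RefSeq start (GRCm38.p6), at chr10:69352913-69353162, chr13:100786487-100786736 and chr9:70421555-70421804, each on the minus strand. Capitals mark CCAAT (the CCAAT box), TTTGAA or TTCGAA (the cell cycle homology region, CHR), TGACG (part of a cAMP response element) and a Myb word (TAACTG or TAACGG, and the same with a first base of C in place of T), on either strand. No marked word overlaps another in these windows.
Cdk1: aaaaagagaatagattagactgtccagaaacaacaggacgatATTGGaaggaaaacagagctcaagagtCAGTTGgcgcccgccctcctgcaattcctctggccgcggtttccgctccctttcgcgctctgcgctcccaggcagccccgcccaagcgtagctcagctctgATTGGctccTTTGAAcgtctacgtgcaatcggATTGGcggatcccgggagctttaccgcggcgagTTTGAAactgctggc
Ccnb1: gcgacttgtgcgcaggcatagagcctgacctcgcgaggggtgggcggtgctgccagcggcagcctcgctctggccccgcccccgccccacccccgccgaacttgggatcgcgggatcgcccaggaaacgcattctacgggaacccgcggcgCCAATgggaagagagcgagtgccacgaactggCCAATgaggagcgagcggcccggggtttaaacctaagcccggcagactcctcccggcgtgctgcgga
Ccnb2: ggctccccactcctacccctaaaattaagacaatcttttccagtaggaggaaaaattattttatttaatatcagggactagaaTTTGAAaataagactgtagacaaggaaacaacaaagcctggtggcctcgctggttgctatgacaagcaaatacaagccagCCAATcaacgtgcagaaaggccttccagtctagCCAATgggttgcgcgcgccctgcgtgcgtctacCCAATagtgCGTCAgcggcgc
In these 250 bases, Cdk1 and Ccnb2 each have 3 CCAAT boxes and Ccnb1 has 2. Cdk1 has 2 CHR words there, against 1 in Ccnb2 and 0 in Ccnb1. Over windows of 300 bases, which add 50 bases after the start, 7 of the 8 members with an entry hold a CCAAT box, against 37.4% of 32851 promoter windows. A CHR word is in 4 of the 8 (19.2% of all windows), a Myb word in 3 (28.3%) and TGACG in 1 (20.8%). In the 300-base window Ccnb2 has 2 CHR words, as many as Cdk1. Ccnb3 is the member with no CCAAT box and has 5 Myb words. These matches are letters in a window and not shown sites. Aurkb and Cdc25c have no entry.

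Ccna1 (chr3:55045469-55055501, minus strand), the germ cell cyclin A that male mice need to complete meiosis, had the smallest deviations of the 10, with a root mean square of 0.025 on the log2 scale over the 6 libraries. Its level was 181, 171 and 174 CPM in WT and 178.5, 175 and 176 CPM in cKO, with the cKO libraries inside the range of the WT libraries. In cKO it reached 100.7% of WT (95% limits 91.8% and 110.6%, edgeR adjusted p = 0.955). Ccnb3 (chrX:6979652-7041619, minus strand), a long B-type cyclin of early meiotic prophase, was the lowest member at 7.64, 6.52 and 6.42 CPM in WT and 7.73, 6.63 and 7.40 CPM in cKO. Its groups overlapped, and with 371 to 564 reads per library its limits were the widest of the 10, -0.15 and 0.32 around a log2 fold change of 0.08 (edgeR adjusted p = 0.770). Ccnb3 and Msl3 are both X-linked.

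Cdc25c (chr18:34732993-34751533, minus strand), a phosphatase that can activate Cdk1, had 14.4, 17.0 and 18.5 CPM in WT and 15.6, 16.9 and 14.8 CPM in cKO. The WT libraries spread widely and enclosed all cKO libraries. The log2 fold change was -0.08 (95% limits -0.29 and 0.14, edgeR adjusted p = 0.759). An annotated gene, Gm3550, overlaps Cdc25c, as 4931419H13Rik, annotated as antisense, does Ccna1 and Gm44985 does Plk1. The counts used separate the strands, which sets apart only a gene on the opposite strand. Unstranded counts gave no call to Cdc25c, Ccna1 or Plk1.

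Plk1 (chr7:122159439-122169873, plus strand), the Polo-like kinase of spindle assembly and cell separation, had 97.9, 83.3 and 91.6 CPM in WT and 102, 108 and 103 CPM in cKO. All cKO libraries lay above all WT libraries, with the second WT library the lowest and the second cKO library the highest. Plk1 in cKO was at 115.0% of WT (95% limits 103.0% and 128.5%, edgeR adjusted p = 0.306). Without the second WT library the log2 fold change was 0.14, and without the first it was 0.26, and neither fit called it.

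**Figure D2:**
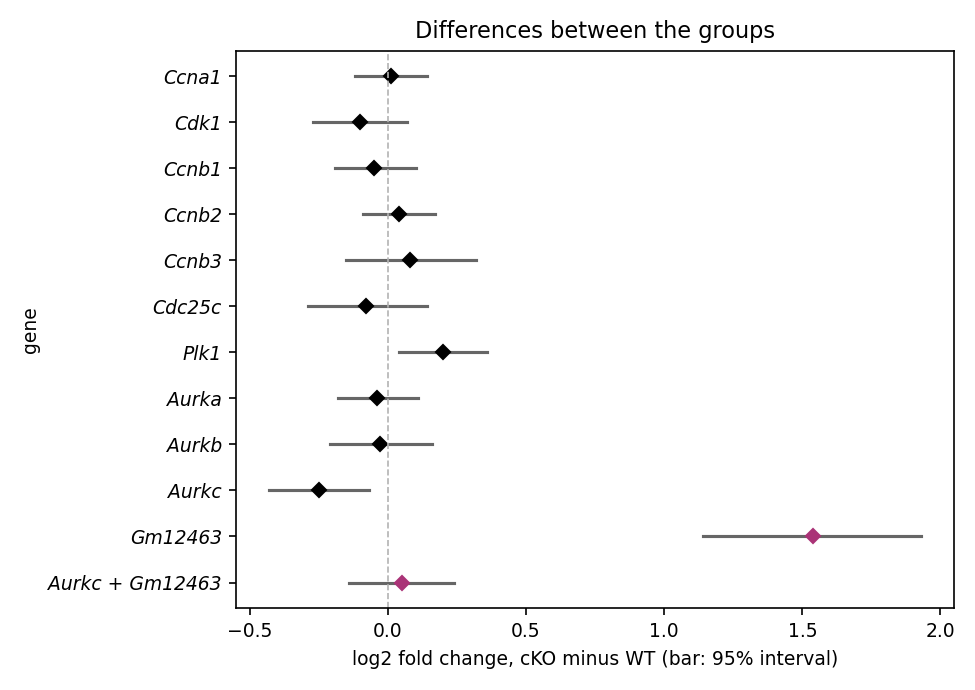
Log2 fold change of cKO minus WT for the 10 genes (black), the Aurkc pseudogene Gm12463 and the sum of both (purple), with 95% limits from the all-gene edgeR fit. The limits of Plk1 and Aurkc exclude 0 without adjustment, Gm12463 stands at 1.54 and the sum at 0.05.

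The Aurora kinases differ in where they act. Aurka (chr2:172356190-172370535, minus strand), the kinase of spindle poles, had 209.8, 194 and 216 CPM in WT and 206, 195 and 202 CPM in cKO. Its groups overlapped fully, and the log2 fold change was -0.04 (95% limits -0.18 and 0.11, edgeR adjusted p = 0.841). Aurkb (chr11:69045647-69051664, plus strand), the kinase of the chromosomal passenger complex at centromeres, had 14.4, 12.2 and 13.6 CPM in WT and 13.4, 12.8 and 13.3 CPM in cKO. Again the cKO libraries lay within the WT range, and the log2 fold change was -0.03 (95% limits -0.21 and 0.16, edgeR adjusted p = 0.912).

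Aurkc (ENSMUSG00000070837, chr7:6995300-7003091, plus strand), the meiotic partner in the passenger complex, had 659, 699 and 657 reads in WT and 640, 513 and 551 in cKO. In CPM these were 11.2, 10.8 and 10.6 in WT and 8.77, 9.17 and 9.43 in cKO, each cKO library below each WT library. Aurkc in cKO was at 84.1% of WT (95% limits 74.2% and 95.3%, edgeR adjusted p = 0.298). This count covers only part of the gene's reads. Of the 1742 distinct 75-base words of Aurkc transcripts, 755 (43.3%) also occur in other genes, 630 of them in Gm12463, a processed pseudogene on chr4:44752277-44753125, minus strand. In STAR's gene counts a read that maps equally well to both places is added to neither gene. A sum of both counts lacks it too.

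The sequences of Aurkc and Gm12463, from GENCODE M21 transcripts on GRCm38, show why many reads may not be placed in 1 of the 2 genes. Of the words of Gm12463, 81.3% are shared with Aurkc, and 36.2% of those of Aurkc are shared with Gm12463. These words are of spliced transcripts. Whether a read across an Aurkc exon join maps equally well to both genes was not tested. An unbroken run of 704 bases is identical, from base 118 to base 821 of the Aurkc coding sequence, counted from 1 at its first base, and from base 1 to base 704 of Gm12463. The first 75 bases of that run, the length of 1 read, are the same in Aurkc (chr7:6996279-6996570, plus strand, across 2 exons) and in Gm12463 (chr4:44753051-44753125, minus strand).
Aurkc and Gm12463: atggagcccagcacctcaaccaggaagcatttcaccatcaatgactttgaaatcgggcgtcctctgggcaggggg
Where they align, the genes differ only after this run. In a stretch of 90 bases beyond it, at chr7:7002851-7002940 of Aurkc (within 1 exon) and chr4:44752300-44752389 of Gm12463, capitals mark the 3 bases that are not the same.
Aurkc: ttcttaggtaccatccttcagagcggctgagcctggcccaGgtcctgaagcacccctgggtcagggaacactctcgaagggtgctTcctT
Gm12463: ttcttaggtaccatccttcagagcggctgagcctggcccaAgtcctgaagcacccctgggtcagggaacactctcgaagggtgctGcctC
Over the 848 aligned bases 6 differ (99.3% identity). Of the 755 read-length windows of Gm12463 that align without a gap, 630 have no difference from Aurkc, 114 have 1, 7 have 2 and 4 have 3. Every window with a difference takes in part of the last 145 bases of Gm12463.

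**Figure D3:**
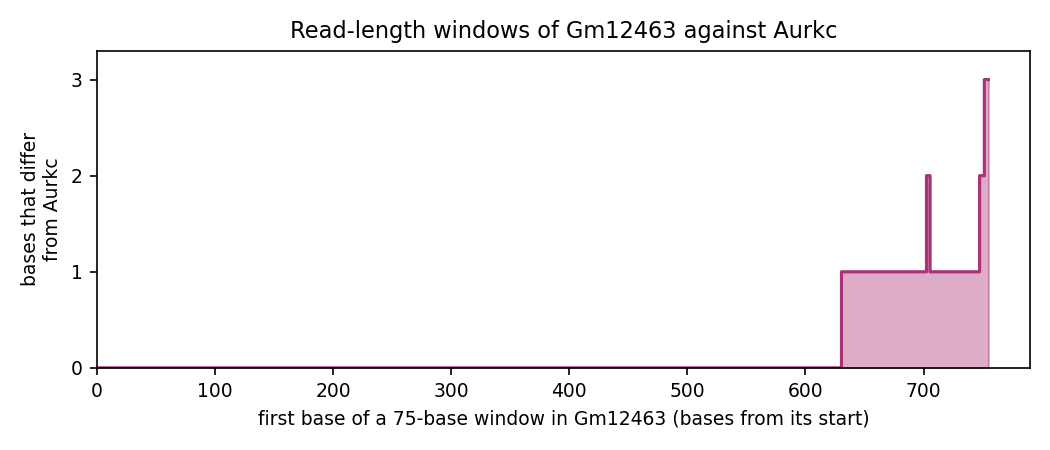
Number of bases that differ from Aurkc in each 75-base window along Gm12463, by the window's first base, for the 755 windows that align without a gap. The 630 windows up to the end of the identical run have 0 differences, and the windows after them have 1 to 3.

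Gm12463 had 73, 66 and 71 reads in WT and 184, 197 and 226 in cKO, all cKO libraries far above all WT libraries. It was 1 of the 4 genes called over the whole table, with a log2 fold change of 1.54 (SE 0.18, edgeR adjusted p = 0.0152). Leaving out WT replicate 2 or 3, or cKO replicate 2 or 3, ended the call. In these 4 fits the adjusted p ran from 0.0588 to 0.135 and the log2 fold change from 1.41 to 1.53. Aurkc counts lay the other way. Summed, the pair had 732, 765 and 728 reads in WT and 824, 710 and 777 in cKO. In CPM the sum was 12.5, 11.8 and 11.7 in WT and 11.3, 12.7 and 13.3 in cKO, with overlapping groups. The sum averaged 12.0 ± 0.407 CPM (SD, n = 3) in WT and 12.4 ± 1.03 CPM (SD, n = 3) in cKO, a log2 fold change of 0.05 (95% limits -0.14 and 0.24, edgeR adjusted p = 0.839). Within the sum, Gm12463 took 9.97%, 8.63% and 9.75% of the reads in WT and 22.3%, 27.8% and 29.1% in cKO. The shares do not overlap, and the exact two-sided permutation p was 0.1, the smallest that 3 libraries against 3 can give. The counts of both genes already separate the groups in opposite directions, which fixes this outcome, so the p adds nothing to those counts.

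**Figure D4:**
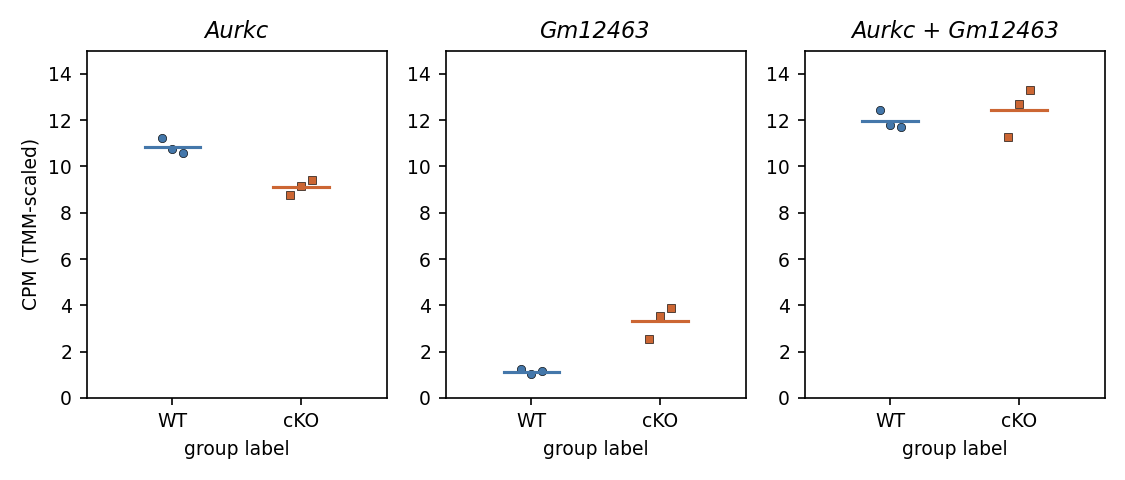
CPM of Aurkc, of Gm12463 and of both summed in each library, with 3 libraries labelled WT (circles) and 3 labelled cKO (squares) and a line at each group mean, all on 1 linear axis from 0. Aurkc is lower and Gm12463 higher in every cKO library, and the sums overlap between the groups.

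A further 7 pseudogenes on chromosome 7 share 2 to 78 read-length words each with Aurkc, and their reads also differed unequally between the groups. Gm7789 (chr7:10988419-10996362, minus strand), which shares 41 words (2.35% of those of Aurkc), had 11, 3 and 6 reads in WT and 115, 82 and 103 in cKO. It is another of the 4 genes called over all genes, with a log2 fold change of 3.87 (SE 0.31, edgeR adjusted p = 6.9e-04), and it was called in each of the 6 fits that left out a library. Gm45549 (chr7:11497020-11503996, minus strand) went the other way, with 55, 69 and 35 reads in WT and 31, 24 and 19 in cKO, but it was not called (log2 fold change -1.11, edgeR adjusted p = 0.277). Gm7210 had 0 reads in each WT library and 11, 10 and 7 in the cKO libraries, too few to be tested. The other 4 had at most 7 reads in a library. With Aurkc and all 8 copies summed, an alternative added after the data were seen, the totals were 800, 841 and 771 reads in WT and 988, 838 and 912 in cKO. The log2 fold change was then 0.18 (95% limits -0.01 and 0.36, edgeR adjusted p = 0.374). The log2 fold change was thus -0.25 for Aurkc alone, 0.05 with Gm12463 and 0.18 with all 8 copies. A sum also holds any reads that a copy itself gave, so it is not a level of Aurkc. How many reads each copy truly gave was not tested.

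Levels were compared between genes only per length, as counts per kilobase of all annotated exons scaled to the same total in every library (TPM). Ccnb2 came first at 296 ± 4.76 TPM (SD, n = 3) in WT and 314 ± 14.4 TPM (SD, n = 3) in cKO. Ccna1 followed at 267 ± 7.25 TPM and 277 ± 5.21 TPM, and Aurka at 228 ± 11.5 TPM and 229 ± 1.42 TPM (SD, n = 3 in each). Plk1 lay at 116 ± 9.07 TPM and 137 ± 7.68 TPM (SD, n = 3 in each). Ccnb1, Cdk1, Aurkc, Aurkb and Cdc25c came next, with WT means of 39.1, 25.4, 19.9, 12.7 and 9.46 TPM. Ccnb3 was the lowest at 4.20 ± 0.421 TPM in WT and 4.57 ± 0.239 TPM in cKO (SD, n = 3 in each). No neighbours in this order overlapped over the 6 libraries. With the longest transcript as the length, Aurka passed Ccna1 and the other 8 genes kept their places. The ranges of Ccnb2, Aurka and Ccna1 then overlapped, as did those of Aurkc, Aurkb and Cdc25c. The values of Aurkc and Ccnb1 may be understated, since reads from shared words, 43.3% and 18.9% of theirs, can go uncounted while the length keeps them.

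Ratios within a library show the balance of related members on the same TPM scale, and they depend on the length used for each gene. Ccnb2 was 7.34 to 7.86 times Ccnb1 in WT and 7.76 to 8.23 times in cKO, and it was 63.5 to 76.7 times Ccnb3 over the 6 libraries. With the longest transcript as the length, an alternative added after the data were seen, Ccnb2 was 4.33 to 4.86 times Ccnb1. Ccnb1 was 1.49 to 1.68 times Cdk1 with exons as the length and 2.24 to 2.53 times with the longest transcript. Ccnb2 was 11.2 to 13.7 times Cdk1 with exons and 9.95 to 12.15 times with the longest transcript. Aurka was 17.0 to 18.5 times Aurkb in WT and 17.8 to 17.95 times in cKO. With the longest transcript it was 14.9 to 16.3 times Aurkb over the 6 libraries. Aurka over Plk1 was 1.86 to 2.05 in WT and 1.57 to 1.75 in cKO, without overlap, which repeats the higher Plk1 counts of the cKO libraries. With the longest transcript this ratio was 2.08 to 2.72 over the 6 libraries. The ratio of Aurkb to Aurkc, 0.586 to 0.666 in WT and 0.720 to 0.787 in cKO, carries the limit on the Aurkc count and was 0.814 to 1.09 with the longest transcript.

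Genes that act with these 10 were described from 5 lists of 100 genes, of which 98 were tested. Lin54 was not analysed here, and Wee2, an oocyte kinase that inhibits Cdk1, had 0 to 4 reads in a library. No list gene was called by edgeR or DESeq2, and 8 had an unadjusted edgeR p under 0.05 with a higher and 2 with a lower cKO level, where 13.9% of all genes had one in either direction. The median log2 fold change over the 98 genes was 0.03, and it was -0.03 over the 10 members and 0.00 over all genes tested.

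In the list of other cyclins and cyclin-dependent kinases, the log2 fold changes of the 18 genes had a median of 0.02, with 1 gene at an unadjusted p under 0.05. That gene was Ccne2, an E-type cyclin of S phase entry, at 57.2 ± 3.79 CPM (SD, n = 3) in WT and 48.9 ± 2.05 CPM (SD, n = 3) in cKO (edgeR adjusted p = 0.288). Cks2, a small Cdk-binding protein needed for meiosis, had the highest level per length of this list, 114 ± 6.65 TPM (SD, n = 3) in WT, and a log2 fold change of -0.14. Ccnd1 and Ccnd3, D-type cyclins of the G1 phase, had log2 fold changes of 0.19 and 0.11.

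Regulators of Cdk1, 20 tested genes, had a median of 0.03 and 2 genes at an unadjusted p under 0.05, both with a higher cKO level. Cdc25a, a phosphatase that activates Cdk kinases, stood at 80.8 ± 2.69 CPM (SD, n = 3) in WT and 94.4 ± 8.22 CPM (SD, n = 3) in cKO (edgeR adjusted p = 0.298). Eif4g3, a translation factor that spermatocytes need to make Hspa2, had 437, 439 and 429.9 CPM in WT and 452, 593 and 508 CPM in cKO (edgeR adjusted p = 0.305). Its second cKO library stood highest, and without cKO replicate 1 the gene was called (log2 fold change 0.34, edgeR adjusted p = 0.0349). That fit called 628 of all genes, against 4 in the main fit. Hspa2, the chaperone that helps Cdk1 pair with cyclin B in spermatocytes, had the highest level per length of the list, 1599 ± 88.8 TPM (SD, n = 3) in WT and 1743 ± 67.9 TPM (SD, n = 3) in cKO. Chek2, a checkpoint kinase, and Cdkn1b, a Cdk inhibitor, had log2 fold changes of -0.23 and -0.12 and were not called.

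Partners of the Aurora and Polo-like kinases, 20 genes, had a median of 0.06, with 3 genes higher in cKO at an unadjusted p under 0.05. Incenp, the scaffold that activates Aurkb and Aurkc, stood at 58.4 ± 3.82 CPM (SD, n = 3) in WT and 69.0 ± 4.80 CPM (SD, n = 3) in cKO (edgeR adjusted p = 0.288). Kif23, a kinesin of cell separation, had a log2 fold change of 0.26 (edgeR adjusted p = 0.289). Tpx2, the activator of Aurka on the spindle, had one of 0.18 (edgeR adjusted p = 0.313), beside 0.20 for Plk1. The groups did not overlap for 4 of the 20 genes, these 3 among them, against 18.9% of all genes. They also did not overlap for 6 of the 20 tested regulators of Cdk1, and over all 5 lists for 16 of 98 genes. Haspin, the kinase whose histone mark recruits the passenger complex, had the highest level per length of the list, 892 ± 64.4 TPM (SD, n = 3) in WT and 959.5 ± 54.9 TPM (SD, n = 3) in cKO. Pbk, a mitotic kinase, had a log2 fold change of -0.13.

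The anaphase-promoting complex and the spindle checkpoint, 27 genes, had a median of 0.01, with 2 genes higher and 1 lower at an unadjusted p under 0.05. Anapc1 stood at 94.8 ± 6.09 CPM (SD, n = 3) in WT and 109.5 ± 4.02 CPM (SD, n = 3) in cKO (edgeR adjusted p = 0.298). Espl1, the protease separase that cuts cohesin, had a log2 fold change of 0.21 (edgeR adjusted p = 0.310). Cdc16, another subunit of the complex, went the other way at -0.19 (edgeR adjusted p = 0.329), and the groups overlapped for both. Cdc20, the activator of the complex, had the highest level per length, 216.5 ± 18.2 TPM (SD, n = 3) in WT and 225 ± 8.61 TPM (SD, n = 3) in cKO.

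Transcription regulators of division genes, 13 tested genes, had a median of 0.07 and 1 gene at an unadjusted p under 0.05. This was Lin37, a subunit of the MuvB complex that binds CHR words, at 17.9 ± 1.95 CPM (SD, n = 3) in WT and 21.3 ± 0.933 CPM (SD, n = 3) in cKO (edgeR adjusted p = 0.304). Foxm1, a factor that acts with MuvB, had 129.5, 131 and 132 CPM in WT and 128, 171 and 148 CPM in cKO. Its first cKO library was just below the WT libraries and the others were above them. Tcfl5, a factor of meiotic prophase, had the highest level per length, 336 ± 16.3 TPM (SD, n = 3) in WT.

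**Figure D5:**
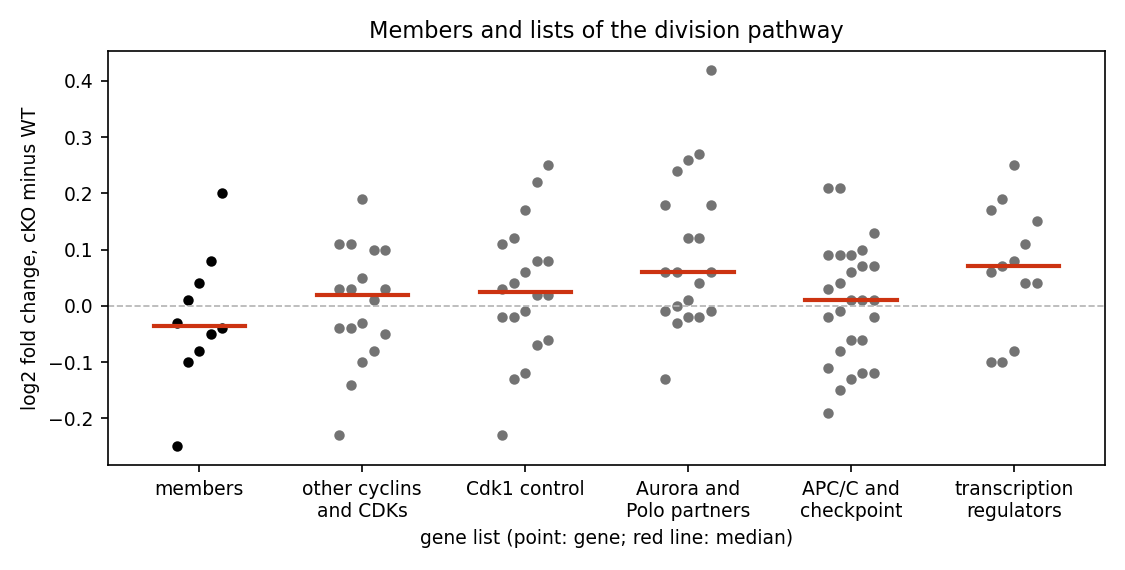
Log2 fold change of cKO minus WT for each tested gene of the 10 members and the 5 pathway lists, with 1 point per gene and a red line at the median of a list. The points lie between -0.25 and 0.42, the highest for Plk3, and the list medians lie between -0.03 and 0.07.

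The pattern of each member over the 6 libraries was set beside those of the 97 list genes averaging 1 CPM or more, by the root mean square difference of their log2 deviations. These values describe 6 libraries that the genes share. Each nearest gene is the smallest of 97 differences, so 1 is always found, and shared control was not tested. The nearest to Plk1 was Anapc1, at 0.036, where the deviation of Plk1 itself was 0.125 and the median difference over the 97 genes was also 0.125. Ccnh, the cyclin of the kinase that activates other Cdks, was nearest to both Ccnb1 (0.031) and Cdk1 (0.059). Aurka was nearest to Ensa (0.024), an inhibitor of the phosphatase that opposes Cdk1, and Aurkb to Bub3 (0.038), a spindle checkpoint protein. Aurkc had the loosest match, with Ccne2 at 0.082, and both were lower in every cKO library than in any WT library. The others were Ccna1 with Ccny (0.021), Ccnb2 with Bora (0.027), Ccnb3 with Ppp2r1a (0.052) and Cdc25c with Cdc26 (0.067). For Ccna1 and Ccnb2 the distance was close to their own deviations of 0.025 and 0.028, so these pairs show little beyond the flatness of both.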

How the data were processed

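Total RNA of whole testes from 6 mice was sequenced as single-end reads of 75 bp, per the labels' protocols. The authors deposited read counts per gene, 1 table per library, in the layout of STAR's gene counts with no normalisation. The submitters' processing notes name STAR, HTSeq, DESeq2 and the build mm10. Versions, the annotation release and the library kit are not given in the sources used here. Opposite-strand counts, 96.0% to 96.2% of both strand columns, were used. Summary lines (14.8% to 16.7% of reads) were left out.

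Symbols, places and lengths came from GENCODE M21 (GRCm38), which matched 52147 of the 53700 identifiers, all 10 members included, and promoters from RefSeq (GRCm38.p6). edgeR 4.0.16 in R 4.3.3 was run with TMM scaling, filterByExpr (minimum count 10), the quasi-likelihood F test with the genotype label as the only term, and p adjusted by Benjamini-Hochberg over 21902 genes. The 95% limits take in both counting error and the spread between libraries. Aurkc and Gm12463 were aligned with Biopython 1.88 and also fitted as 1 summed gene. Alternatives were RLE scaling, library totals, 2 other filters, unstranded counts, robust fits, a replicate block, each library left out, DESeq2 1.42.0, a threshold of 0.1 and, added later, sums over all copies and level ratios with another gene length.

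The members, lists and tests were chosen with earlier results of these data known. Named genes are the members, Msl3, copies sharing read-length words with a member, up to 4 genes per list with the smallest p, the genes highest per length in each list, and the nearest pattern to a member. Libraries of a group differed beyond counting error, with a chi-square per degree of freedom of at least 9.64.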

Additional observations from a re-analysis of the deposited data

How the results depend on the processing

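No member was called under any of the 15 alternatives tried, each library left out in turn included, and the log2 fold changes of Plk1 (0.14 to 0.26) and Aurkc (-0.28 to -0.22) kept their sign. That of Ccna1 changed sign with library totals alone (-0.02), and in the fits lacking WT replicate 2 (-0.01) or 3 (-0.0032). That of Aurkb changed sign without WT replicate 1 (0.03) and ran from -0.09 to 0.03 without each library in turn. The sum of Aurkc and Gm12463 ranged from -0.0002 to 0.12 without each library in turn, the lowest without cKO replicate 3. DESeq2 gave no adjusted p for Gm12463 or Gm7789. Gm7789 was not tested where at least 10 reads in every library were required. The list of Cdk1 regulators had 0 to 1 calls without each library in turn. The order of levels per length moved 2 genes with the longest transcript. Over all genes, 4 were called. The count was 757 with no filter on low counts, 2 with unstranded counts, 193 with DESeq2 and 1 to 628 without each library in turn, the highest without cKO replicate 1 and 116 without WT replicate 1. The cause was not tested. The deviations of same-numbered libraries had correlations of 0.35, 0.26 and -0.05. Those of differently numbered libraries were not computed, so whether shared numbers mark a pairing was not tested. The main fit leaves the numbers out. With a replicate block 49 genes were called, no member among them.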
